A study of Rattus norvegicus with 2 samples.

Results

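Rat chromosomes 10 and 12 carried 10252 of the 104960 FOSL1-FLAG peaks in the deposited list, 7198 on chromosome 10 and 3054 on chromosome 12. The chromosomes were selected on peak number itself, as the autosomes with the most peaks per Mb, so their high density is a description and was not tested. FOSL1 is a subunit of AP-1, a dimeric transcription factor whose Fos partners bind DNA only together with a Jun protein, classically at the element TGANTCA. In Schwann cells, the glia of peripheral nerves, AP-1 is best known through c-Jun, which drives the repair state after nerve injury.

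The study captured chromatin from primary Schwann cells of newborn rat sciatic nerve, genotype WT, that had received a pRlenti construct with EGFP, a puromycin resistance gene and FOSL1-3Flag. Its CMV promoter drives tagged FOSL1, so binding was read from overexpressed protein and not from the endogenous gene. One group, FOSL1-FLAG ChIP, was precipitated with an anti-FLAG antibody, and the other, input, was not precipitated. Each group held 1 library, both from cells with the construct, and peaks were called by the authors on the ChIP library against the input. With no replicate there is no biological error and no test between chromosomes, and 95% intervals are exact intervals of counting error that treat peaks and PCR copies as independent, although peaks cluster. A library from cells with the control lentivirus was not analysed here. All coordinates are 1-based on the rat build rn6.

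Both chromosomes are known to be gene-rich for their length. Chromosome 10 carries Ngfr and Gfap, which mark immature and repair Schwann cells, Erbb2, part of the neuregulin receptor, Pmp22, a protein of compact myelin, and Nf1, the tumor suppressor lost in neurofibromas. Chromosome 12 carries Hspb1, a small heat shock protein. An rn6 annotation was not used here, so peaks are given by position and none was assigned to these or other genes.

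Chromosome 10 held 64.0 peaks per Mb (62.5 to 65.5) and chromosome 12 held 58.0 (56.0 to 60.1), with length taken as the end of the last peak, at 112513384 and 52646282. Chromosome 12 was the last inside the rule, and the nearest outside it were chromosome 20 with 50.9 peaks per Mb and chromosome 19 with 50.4. The other 18 autosomes ran from 31.8 to 50.9 with a median of 38.0, which puts chromosome 10 at 1.69 and chromosome 12 at 1.53 times that median. The pair therefore held 9.93% of autosomal peaks on 6.31% of autosomal length. Its share was 123 of the 1000 peaks that the authors ranked first by p-value, or 12.3%.

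**Figure D1:**
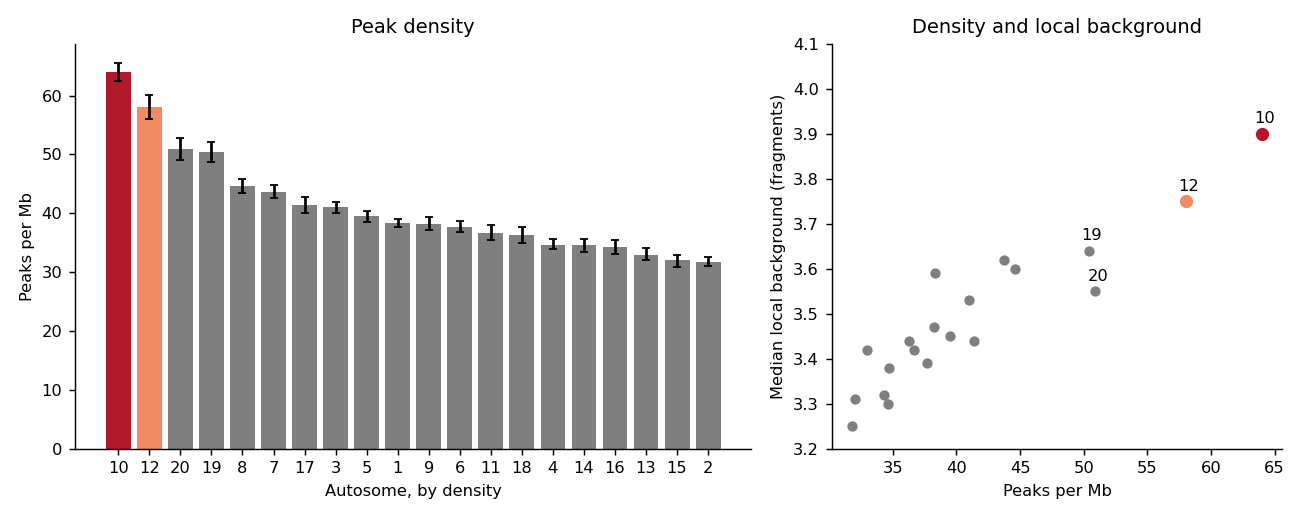
Left, peaks per Mb (vertical axis) of each autosome, with bars of exact 95% Poisson intervals; right, median local background at the peaks (vertical axis, fragments, starting above 0) against peaks per Mb for the same 20 autosomes. Chromosomes 10 (red) and 12 (orange) stand highest on both axes, at 64.0 and 58.0 peaks per Mb and at backgrounds of 3.90 and 3.75, and chromosomes 19 and 20 come next in density.

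By the median, the peaks of both chromosomes also sat on a higher local background than those of any other autosome. The local background is the number of fragments that would be found at a summit without enrichment, recovered here from the deposited fold and p-value of each peak. Its median was 3.90 on chromosome 10 and 3.75 on chromosome 12, against 3.25 (chromosome 2) to 3.64 (chromosome 19) elsewhere. The mean number of ChIP fragments at the summit was 14.9 on chromosome 10 and 14.6 on chromosome 12, against 13.7 to 14.8 elsewhere, with chromosome 19 above chromosome 12. The median fold was 3.14 on both chromosomes, under the 3.17 to 3.23 of the other 18, although the difference is small beside the spread of single peaks (5th to 95th percentile 2.23 to 4.40 over the pair). Median widths of 206 and 205 bp were at or just above the upper end of the range of 193 to 205 bp elsewhere. Peaks at least 400 bp wide made up 6.56% of chromosome 10 (6.0 to 7.15%) and 6.78% of chromosome 12 (5.91 to 7.73%), against 4.06 to 6.08%.

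These measures moved with density across the other autosomes too. Over the 18 autosomes outside the pair, density and median background had a Pearson r of 0.84 and a Spearman rho of 0.87, density and median fold -0.55 and -0.62, and density and median width 0.77 and 0.72. The values are descriptions, since all chromosomes come from the same libraries, and base composition, alignability and copy number were not measured.

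Enrichment did not set the pair apart in the same way as density did. A fold of at least 4 was reached by 799 peaks on chromosome 10 (11.1%) and 328 on chromosome 12 (10.7%), where 11.9% of all autosomal peaks reached it. A fold of at least 5 was reached by 91 (1.26%) and 46 (1.51%), where the autosomal share was 1.43%. The authors' q-value was at most 0.05 for 4522 peaks on chromosome 10 (62.8%) and 1843 on chromosome 12 (60.3%), where the autosomal share was 60.7%. All of these shares lay close to the autosomal one. In every fold class the pair held more peaks per Mb than the median other autosome, by ratios that varied with the fold. Peaks with a fold under 2.5 were 1.85 and 1.66 times as dense on chromosomes 10 and 12 as on the median other autosome, and those with a fold from 4 to under 5 were 1.60 and 1.36 times as dense. At a fold of 5 or more the densities were 0.809 per Mb (0.651 to 0.993) and 0.874 per Mb (0.640 to 1.17), and chromosome 19 reached 0.807, so at this depth the pair could not be separated from chromosome 19 in strong peaks.

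The local background divided the peaks more sharply than the fold did. Peaks at the genome-wide background of 2.24 fragments, the lowest value a peak could have, were no denser on the pair than elsewhere. There were 310 on chromosome 10, or 2.76 per Mb (2.46 to 3.08), and 156 on chromosome 12, or 2.96 per Mb (2.52 to 3.47), inside the range of 2.51 to 3.81 of the other autosomes. Between that level and 3 fragments the ratio to the median autosome was 1.16 and 1.27. From 3 to under 4 fragments it was 1.72 and 1.53, and from 4 to under 5 it was 2.25 and 1.81. At 6 or more fragments chromosome 10 held 5.45 peaks per Mb and chromosome 12 held 4.52, or 2.37 and 1.97 times the median, above the highest other autosome at 3.90. The excess of peaks was thus found where the local background was raised, with the highest ratios at 4 fragments or more. Such a climb was not particular to background. By ChIP fragments at the summit, the ratios went from 0.908 and 1.14 under 10 fragments to 2.43 and 2.05 from 20 to under 25. At 25 or more they were 2.51 and 1.91. By width they went from 1.53 and 1.46 at 150 bp to 2.31 and 2.16 at 400 bp or more. Background was recovered at peaks alone, so how much of each chromosome lies at each level was not measured.

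**Figure D2:**
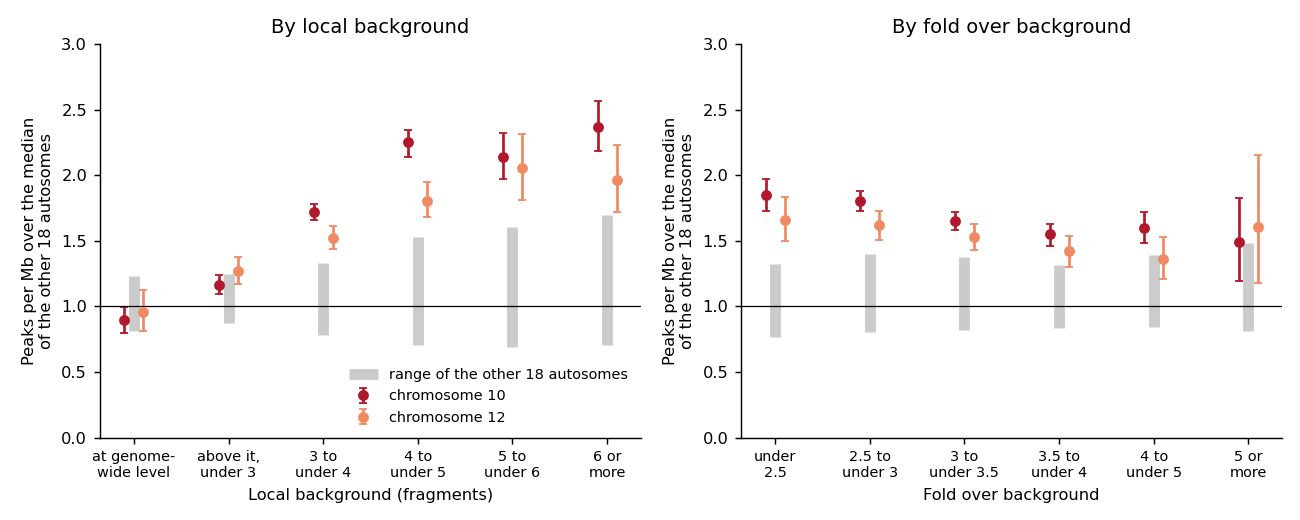
Peaks per Mb on chromosomes 10 (red) and 12 (orange), divided by the median of the other 18 autosomes (vertical axis, bars are exact 95% Poisson intervals of the counts), by class of local background (left) and of fold (right); grey bands are the range of the other 18 autosomes. The ratio goes from 0.891 and 0.958 at the genome-wide background to 2.37 and 1.97 at 6 or more fragments, while by fold it stays between 1.36 and 1.85.

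In fixed 1 Mb bins starting at 0, the excess showed in the middle of the distribution as well as in the densest bins. The median bin held 59 peaks on chromosome 10 (113 bins) and 52 on chromosome 12 (53 bins), against medians of 26 to 43 on the other autosomes. The lower quartile was 32 peaks on both chromosomes and at most 24 elsewhere. Bins with 100 peaks or more numbered 21 on chromosome 10 (18.6%) and 12 on chromosome 12 (22.6%). The share on the other 18 autosomes ran from 0.541% (chromosome 4) to 14.5% (chromosome 19), with chromosome 20 close below chromosome 19. Of the 2460 bins of those 18 pooled, 3.70% held 100 peaks or more. The pair held 33 of the 124 such bins, or 26.6%, with 6.32% of all bins. These 33 bins contained 3908 peaks, 38.1% of the members. At the other end, 11.5% of bins on chromosome 10 and 15.1% on chromosome 12 held fewer than 20 peaks, against 19.8 to 42.1% elsewhere. Nearly empty bins, with 5 peaks or fewer, did not follow this order, with 4.42% on chromosome 10 and 13.2% on chromosome 12 against 6.34% of the bins of the other autosomes pooled. The 10th percentile of chromosome 12 was 4.20 peaks a bin, under the median of 8.70 over the other autosomes, so its excess did not extend to its sparsest bins.

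**Figure D3:**
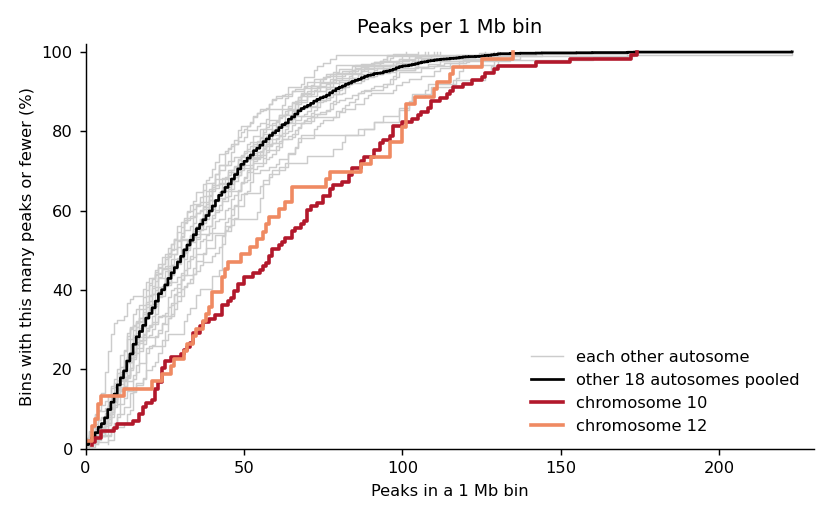
Share of 1 Mb bins (vertical axis, cumulative percent) holding a given number of peaks or fewer (horizontal axis) on chromosomes 10 and 12, on each of the other autosomes and on those 18 pooled. The curves of the pair lie to the right of the rest over most of the range, with medians of 59 and 52 peaks, while the curve of chromosome 12 starts high because 7 of its 53 bins (13.2%, against 6.34% elsewhere) held 5 peaks or fewer.

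The densest bin of chromosome 10, from 85000001 to 86000000, held 174 peaks (149 to 202). It was followed by the bin from 109000001 to 110000000 with 172 (147 to 200) and the bin from 106000001 to 107000000 with 153 (130 to 179), whose intervals overlap with the first. The median background in these bins was 4.18, 4.04 and 4.20 fragments, and 3, 2 and 0 of their peaks reached a fold of 5, few counts that cannot be told from the autosomal share of 1.43%. On chromosome 12 the densest bins were neighbours, from 38000001 to 39000000 with 135 peaks (113 to 160) and from 37000001 to 38000000 with 125 (104 to 149), followed by the bin from 17000001 to 18000000 with 116 (95.9 to 139). The densest bin of all autosomes was on chromosome 7, from 12000001 to 13000000, with 223 peaks, and a bin of chromosome 16 held 173. The densest bins of the pair were therefore matched elsewhere. What differed was the share of bins with 100 peaks or more, which was highest on the pair, with chromosomes 19 and 20 next.

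The emptiest bins held 0 to 5 peaks. On chromosome 12 the bin from 20000001 to 21000000 held 0 peaks (exact 95% upper limit 3.69). It lay inside the longest stretch of the pair without a summit, 2251 kb from 19581686 to 21832407. The next bin, in which this stretch ended, held 2 peaks. The bins of chromosome 12 from 33000001 to 36000000 held 4, 4 and 2 peaks, and those from 3000001 to 5000000 held 5 and 3. Chromosome 10 had no empty bin. Its sparsest whole bins were those from 44000001 to 45000000 with 2 peaks, from 60000001 to 61000000 with 3, and from 33000001 to 34000000 and 111000001 to 112000000 with 5 each. Its longest stretch without a summit, 1139 kb from 111142091 to 112280615, lay near the end of the chromosome. Sequence gaps in the assembly were not analysed here.

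Bins of like density were then compared. In bins with 100 peaks or more, the median local background was 4.0 fragments on the pair (interquartile range 3.37 to 5.00, 3908 peaks) and 4.0 elsewhere (3.42 to 5.00, 10779 peaks). The median fold was 3.09 and 3.11, the median width 216 and 215 bp, and a fold of 4 was reached by 10.1% (9.20 to 11.1%) and 10.4% (9.87 to 11.0%). In bins with 40 to 59 peaks, the background was 3.39 and 3.41, the fold 3.22 and 3.21 and the width 199 and 197 bp. In the sparsest bins, with 1 to 19 peaks, the background was 2.52 and 2.55 and the fold 3.32 and 3.36. At a given number of peaks per bin, the peaks of the pair thus differed little from those of the other autosomes in these measures. The largest difference in median background, 3.15 on the pair against 3.00 in bins with 20 to 39 peaks, was far smaller than the interquartile range.

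**Figure D4:**
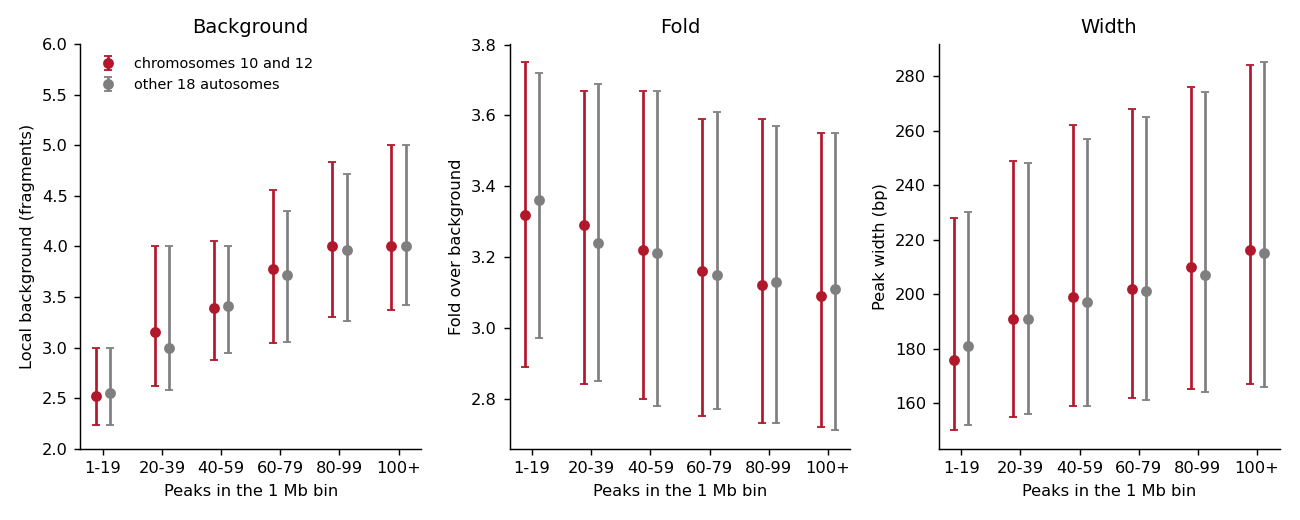
Median local background (left, fragments), fold (middle) and width (right, bp) of peaks by the number of peaks in their 1 Mb bin (horizontal axis), for chromosomes 10 and 12 (red) and the other 18 autosomes (grey); bars are interquartile ranges and vertical axes do not start at 0. Red and grey medians lie close together in each class, while both rise in background and width and fall in fold from sparse to dense bins.

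Summits on the pair lay close to each other. The median gap between neighbouring summits was 6631 bp on chromosome 10 and 6748 bp on chromosome 12, against 7662 bp (chromosome 20) to 13004 bp (chromosome 15) elsewhere. Another summit lay within 5 kb of 64.4% of summits on chromosome 10 (63.3 to 65.5%) and 63.6% on chromosome 12 (61.9 to 65.3%), against 47.0 to 60.9%. Another lay within 500 bp of 6.18% and 6.42%, against 3.48 to 5.52%. Short gaps follow in part from the density used to choose the chromosomes. Divided by the mean gap of its own chromosome, the median gap was 0.425 on chromosome 10 and 0.391 on chromosome 12, within the range of 0.347 to 0.433 of the other autosomes. In bins of like density the share with another summit within 5 kb differed in both directions. It was higher on the pair in bins with 20 to 39 peaks (42.3% against 38.4% elsewhere) and 40 to 59 (54.9% against 50.6%). In bins with 60 to 79 peaks it was 63.1% (60.7 to 65.4%) against 60.5% (59.8 to 61.2%), with overlapping intervals. In bins with 80 to 99 peaks it was 69.8% (67.6 to 71.8%) against 66.8% (66.0 to 67.6%), with intervals that touch. In bins with 1 to 19 peaks it was 19.2% (13.6 to 25.9%) against 20.4% (19.6 to 21.3%), with overlapping intervals. In bins with 100 peaks or more, it was lower on the pair, with 73.4% (72.0 to 74.8%) against 76.2% (75.4 to 77.0%).

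**Figure D5:**
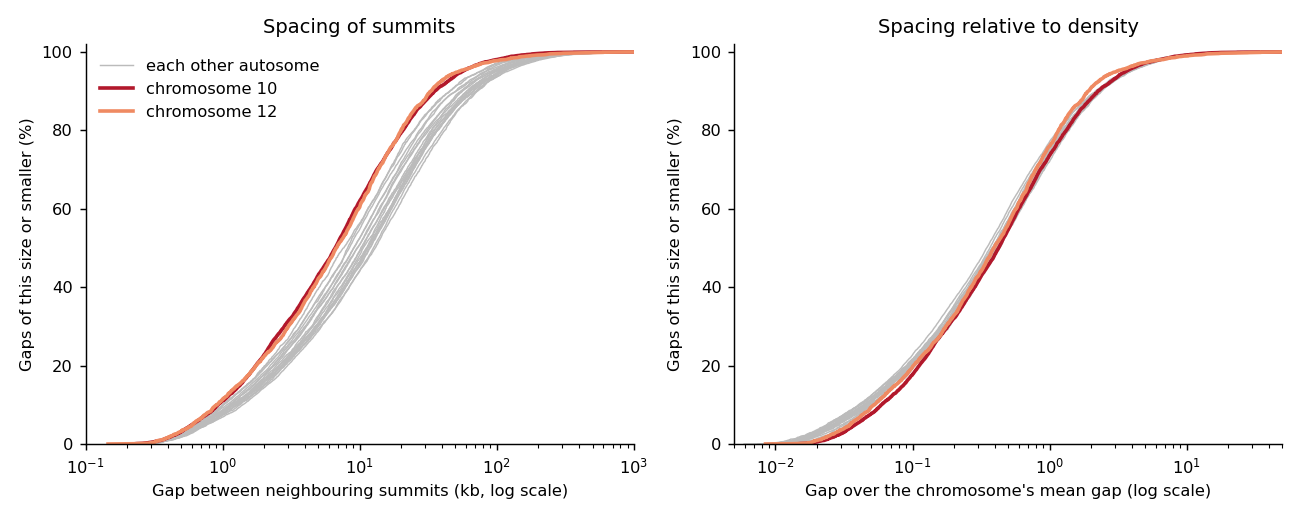
Cumulative share of gaps between neighbouring summits (vertical axis, percent) by size in kb (left) and by size relative to the mean gap of the same chromosome (right), both on log axes, for chromosomes 10 and 12 and each other autosome. On the left the pair is shifted to short gaps, with medians of 6631 and 6748 bp, and on the right its curves fall among or beside those of the other autosomes.

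The strongest single peaks of the pair did not all lie in its densest bins. The highest fold on chromosome 10 was 8.73, at 43740475 to 43741074, with 35 ChIP fragments (24.4 to 48.7) over a background of 3.09 and a q-value of 6.63e-19, in a bin of 65 peaks. The next, at 83128630 to 83128902, had 41 fragments (29.4 to 55.6) over 3.96 and a fold of 8.40, and its nearest neighbouring summit was 814 bp away in a bin of 103 peaks. The intervals of these peaks overlap, so their order is not settled. They were followed by peaks at 55697095 to 55697626, 57348072 to 57348387 and 109463124 to 109463369, with folds of 6.91, 6.74 and 6.68 and 30, 28 and 21 fragments. The last of these lay in a bin of 172 peaks over a background of 2.27.

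On chromosome 12 the highest fold was 8.02, at 29621790 to 29621983, with 35 fragments (24.4 to 48.7) over 3.45 and a q-value of 2.01e-17. It lay in a bin of 24 peaks, with its nearest neighbouring summit 17375 bp away. The second, at 22472364 to 22472701, had 27 fragments (17.8 to 39.3) over 2.75 and a fold of 7.42, in a bin of 101 peaks. The third, at 49879904 to 49880098, had 20 fragments (12.2 to 30.9) over 2.24 and a fold of 6.42, and no other summit lay within 50 kb of it. They were followed by peaks at 13758378 to 13758771 and 39935092 to 39935846, with folds of 6.22 and 6.12. The 5 strongest peaks of chromosome 10 thus all lay in bins above its median of 59 peaks, and those of chromosome 12 in crowded and in sparse surroundings. Dense bins hold more of all peaks too, with 36.0% of chromosome 10 peaks in its bins of 100 or more. The positions of 5 peaks per chromosome therefore show no trait of strong peaks and no difference between the chromosomes.

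Some members were weak or lay on a high background. The highest backgrounds on the pair belonged to neighbouring peaks of chromosome 12, at 3364398 to 3364712 and 3361550 to 3361747. They had 47 and 36 fragments over backgrounds of 21 and 19, folds of 2.16 and 1.83 and q-values of 0.00224 and 0.0881, in a bin of 5 peaks. On chromosome 10 the highest background was 14 fragments, at 109333320 to 109333575, with 27 ChIP fragments and a fold of 1.85. The highest q-value among the members was 0.532, at 14626255 to 14626404 on chromosome 12, a peak resting on 7 fragments (2.81 to 14.4) over 2.33. The widest members were 1257 bp, on chromosome 10 at 55620581 to 55621837 with a fold of 5.61, and 983 bp, on chromosome 12 at 51839759 to 51840741 with a fold of 5.33.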

How the data were processed

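For each peak of the FOSL1-FLAG ChIP library, called against 1 input library with nothing pooled, the authors deposited rn6 positions, the fold over local background (a ratio), the −log10 of a p-value and of a q-value, and a score, which repeats the p-value and was not used. The submitters' processing notes list deepTools 3.3.0, SAMtools 1.7 and Bowtie2 2.2.6, and a human build, but sequence names are those of rn6. The sources used here give neither the peak caller nor the handling of duplicates. The list does not hold the depth of the libraries. The labels describe fragmentation of chromatin by sonication, and the paper by micrococcal nuclease and sonication.

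Fragments and local background were recovered from fold and p-value, taking the fold with a pseudocount of 1 and the ChIP as 1.01 times as deep as the input. The deposited −log10 p-value was met within 0.001 for 104959 of 104960 peaks, the exception being outside the autosomes, and the method was tested on simulated data. Peaks were assigned to 1 Mb bins by summit. Chromosome length was the end of the last peak. The members and measures were chosen with earlier results of these data known. Named peaks were the 5 of highest fold per chromosome, with the 3 densest and the emptiest bins; those of highest background, width and q-value were added after their values were seen. No p-value was computed, since each group has 1 library. Python 3.11.15 was run with pandas 2.3.3, scipy 1.17.1, numpy 2.4.6 and, for figures, matplotlib 3.10.9. The planned gene lists, nearest genes and cell type markers were not run, since they need an rn6 annotation or expression data.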

Additional observations from a re-analysis of the deposited data

How the results depend on the processing

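No paired analysis was possible because each group had 1 library. Of 47 alternative values, 20 stayed within the counting interval (for the number of peaks, within 1.5 times), 25 moved and 2 changed side. The 10252 peaks fell, by construction, to 6365 with q-values up to 0.05, 3604 up to 0.01 and 225 up to 1e-05, and to 1127 with a fold of 4 or more. The density ratio of chromosome 10, 1.69, was 1.76, 1.75 and 1.94 at those q-values and 1.59 at that fold; that of chromosome 12, 1.53, stayed at 1.53 at a q-value of 0.05 and was 1.61 at 0.01, 1.84 at 1e-05 and 1.40 at that fold. The chromosomes kept the first and second rank at q-values up to 0.05 and 0.01. Up to 1e-05 chromosome 12, with 69 peaks or 1.31 per Mb, could not be separated from chromosome 19, with 81 peaks or 1.31 per Mb. At a fold of at least 4 chromosome 12, with 328 peaks or 6.23 per Mb, could likewise not be separated from chromosome 19, with 389 peaks or 6.27 per Mb. Added after seeing the data, leaving out the densest 10% of bins of each chromosome gave ratios of 1.78 and 1.60, and peaks at the genome-wide background alone gave 0.891 and 0.958; the cause was not tested. At q-values of at most 0.05 and 0.01, the median fold of 3.14 became 3.47 and 3.77, the median background of 3.84 became 3.75 and 3.75, the median width of 206 bp became 203 and 210 bp, and the share with another summit within 5 kb, 64.2%, became 50.4 and 36.2%. That share was 20.3% within 1 kb and 81.8% within 10 kb. At a q-value of 0.05 the densest bin held 116 peaks in place of 174 and the median bin 34.0 in place of 57.5. Merging summits within 500 bp left 9926 peaks and moved neither the density ratios nor the bin values beyond counting error. The same held for other bin starts (bin values alone), occupied bins as length (density ratios alone) and leaving out high-background peaks, which removes none of the members. Counting error limits single peaks: 35 fragments have an interval of 24.4 to 48.7.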

Other observations

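Dense and nearly empty stretches met abruptly at a few bin borders of the pair, a pattern noticed while the bins were being read. A bin of 5 peaks or fewer lay directly beside a bin of 50 or more at 5 of 112 bin borders on chromosome 10 (4.46%) and 2 of 52 on chromosome 12 (3.85%), against 17 of 2442 on the other 18 autosomes (0.696%). The other autosomes were pooled, and their single shares were not computed. On chromosome 10 the bin from 44000001 to 45000000, with 2 peaks, lay between bins of 65 and 75, and the bin from 60000001 to 61000000, with 3, between bins of 55 and 59. Each of these bins was counted at both of its borders, so the borders are not separate events. On chromosome 12 a bin of 2 peaks was followed by a bin of 101 at 22000001, and another bin of 2 by a bin of 90 at 36000001. With more bins of 50 or more peaks on the pair, such borders can also arise more often, and this was not tested. Neighbouring bins were otherwise alike to the usual degree. The Spearman rho of peak number between neighbouring bins was 0.588 on chromosome 10 and 0.526 on chromosome 12, within the range of 0.388 to 0.761 on the other autosomes, given as a description over bins of the same library.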
